A study of Arabidopsis thaliana with 4 samples.

Results

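The plastid genome of *Arabidopsis thaliana* encodes core subunits of the photosynthetic complexes, and 45 of these genes were followed on 4 Affymetrix ATH1 arrays of whole seedlings. They were taken by name and location, not by measured values: genes annotated to the plastid genome whose symbols start with psa, psb, pet, atp or ndh, together with rbcL, ycf3 and ycf4, each read by a probe set naming that gene alone. The gene set itself was chosen with earlier results of these data known. The 45 genes are part of 69 plastid-encoded genes and of 22746 probe sets measured. Each had 1 such probe set, so no choice between probe sets was needed. In RefSeq 46 gene names meet the rule. The missing one, ndhB, lies in the inverted repeat as 2 copies that share a probe set. Of the 45 genes, 5 encode subunits of photosystem I (PSI), 15 of photosystem II (PSII), 6 of the cytochrome b6f complex, 6 of the ATP synthase and 10 of the chloroplast NADH dehydrogenase-like complex (NDH). rbcL encodes the large subunit of Rubisco, and ycf3 and ycf4 encode PSI assembly factors.

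The comparison was between the wild type Col and the mutant ref6-1 in the Col background, with 2 arrays each, labelled as biological replicates. Both groups were untreated whole seedlings, 10 days after germination, from MS plates kept at 23 °C in a cycle of 16 h light and 8 h dark. REF6 (JMJ12) is a Jumonji-type histone demethylase that removes Polycomb-type methylation from histone H3 in nuclear chromatin. Its own transcript was not analysed here, so the genotype labels were not checked in this way. Deposited values were linear intensities, with array medians between 142.6 and 146.3, and the number of arrays limits the precision. Markers of green tissue were present on every array (RCA from 12708 to 13878, LHCB4.1 from 11560 to 12764), and so were those of roots (EXPA18 from 186 to 220, EXPA7 from 91.2 to 108.8, PYK10 from 5200 to 6765). Of 6 names listed for leaf markers 2 genes were found, and of 7 for root markers 3. Their log2 fold changes (ref6-1 minus Col) were all slightly above 0, and none was called. In RCA, LHCB4.1 and EXPA18 the genotypes overlapped, and in EXPA7 and PYK10 they did not. PYK10, a beta-glucosidase gene of roots, read 5200 and 5895 in Col and 6559 and 6765 in ref6-1, without overlap (log2 fold change 0.27, 95% interval 0.04 to 0.50, limma adjusted p = 0.453). EXPA7 and EXPA18, expansin genes of root hairs, were at 0.11 and 0.09, RCA at 0.06 and LHCB4.1 at 0.02. The part of tissue makeup in the results below was not tested. In such bulk samples fewer green cells or plastids and less RNA per cell cannot be told apart.

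Plastid genes are transcribed in the organelle, which has no histones, by a plastid-encoded polymerase guided by nuclear-encoded sigma factors and by a phage-type polymerase encoded in the nucleus. Most of them lie in cotranscribed units whose long transcripts are cut, spliced and edited by nuclear-encoded RNA-binding proteins. PSII, cytochrome b6f and PSI carry electrons from water to ferredoxin, the ATP synthase uses the resulting proton gradient, and NDH returns electrons from ferredoxin to the plastoquinone pool. Most plastid messages carry no stable poly(A) tail. The priming of cDNA synthesis is not given in the labels, and an intensity is therefore read only against the same probe set on another array.

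None of the 45 genes passed the test between ref6-1 and Col. With limma over all probe sets, 0 of 45 had an adjusted p under 0.05, against 1.48% of all probe sets (0.774% higher and 0.708% lower in ref6-1). At an unadjusted limma p under 0.05 there were 3 of 45, which is 6.67%, against 8.5% of all probe sets. With replicate number as a block in the fit, 11 of 45 were called, all higher in ref6-1, against 1636 of 22746 probe sets. No label gives such a pairing of replicates, so the values below are from the fit without a block. The log2 fold changes (ref6-1 minus Col, on the scale of log2(intensity + 16)) were small and nearly all on the same side of 0: 43 of 45 were above 0, against 43.6% of all probe sets, with a median of 0.10 against -0.02. They ran from -0.10 for ndhF to 0.58 for psaJ. The standard error ranged from 0.0937 to 0.424 with a median of 0.124. The 3 root markers, all above 0 as well, had a median of 0.11, and the 2 leaf markers one of 0.04. The shared sign is a description of these arrays and not a call, because genes of 1 genome measured on the same 4 arrays are not independent.

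**Figure D1:**
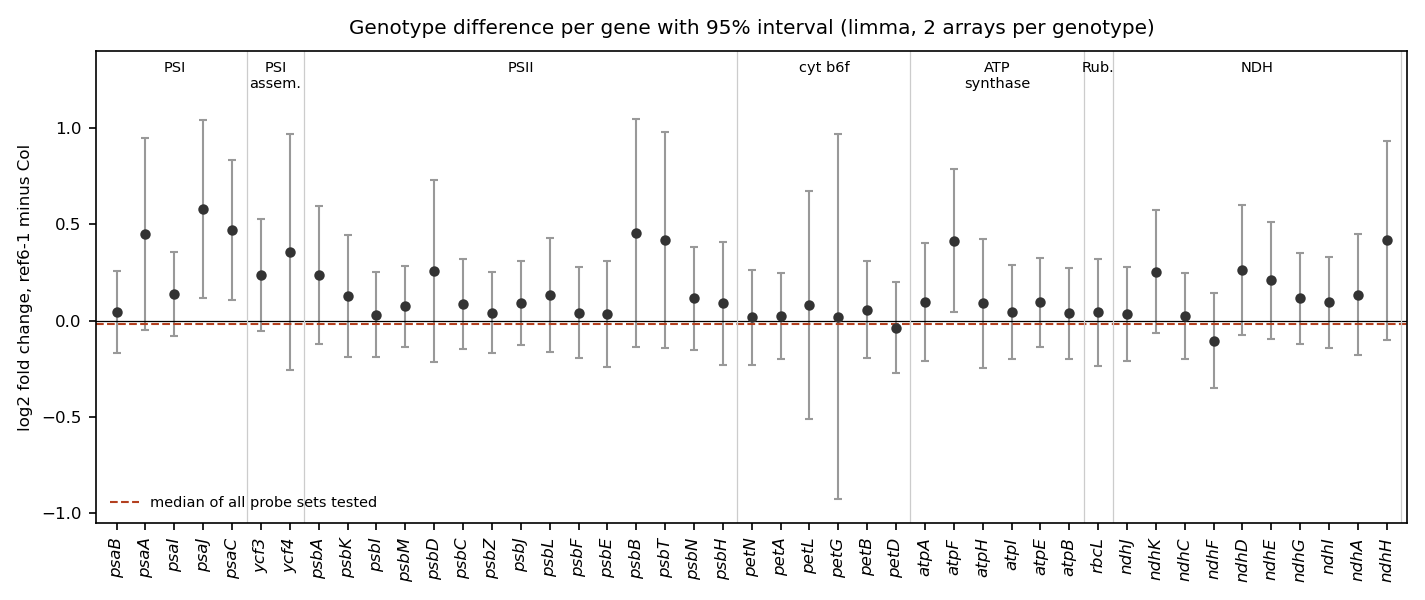
Log2 fold change (y axis, ref6-1 minus Col, log2(intensity + 16)) of each of the 45 genes (x axis, grouped by complex), with the 95% interval from limma over 2 arrays per genotype; the dashed line is the median of all probe sets tested. Nearly all points lie above 0 with intervals that cross it, except for psaC, psaJ and atpF, whose intervals lie above 0 but whose adjusted p did not pass.

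PSI had the highest median of the complexes with more than 2 genes, 0.45 over its 5 genes. psaJ, which encodes a small membrane subunit of PSI, read 501 and 861 on the Col arrays and 890 and 1101 on the ref6-1 arrays. The genotypes did not overlap, but Col replicate 2 was nearer to ref6-1 replicate 1 than to the other Col array. The genotypes differed by 0.58 in log2 (SE 0.207, limma adjusted p = 0.386, 95% interval 0.12 to 1.04). psaC encodes the iron-sulfur subunit that hands electrons to ferredoxin, and its intensities were 36.5 and 48.0 in Col and 51.8 and 79.0 in ref6-1. These did not overlap either, with ref6-1 replicate 2 well above the other arrays, and the mean difference was 0.47 (SE 0.163, adjusted p = 0.356, 95% interval 0.11 to 0.83).

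The genes of the large PSI core subunits, psaA and psaB, are transcribed together. Their point values were unlike, and the difference between them was not tested. For psaA the intensities were 911 and 1530 in Col and 1354 and 1942 in ref6-1. The genotypes overlapped, Col replicate 1 being the lowest and ref6-1 replicate 2 the highest, and the mean difference was 0.45 (SE 0.223, adjusted p = 0.667). For psaB they were 9090 and 9417 in Col and 9373 and 9733 in ref6-1, differing by 0.05 in log2 (SE 0.0957). The small subunit gene psaI had 1420 and 1550 in Col and 1657 and 1610 in ref6-1, without overlap and with a log2 fold change of 0.14. The assembly factor gene ycf4 read 843 and 1486 in Col and 1084 and 1911 in ref6-1. Here the replicates of each genotype lay farther apart than the genotypes (log2 fold change 0.36, SE 0.274). ycf3 had 418 and 504 in Col and 487 and 607 in ref6-1, differing by 0.24 (SE 0.131).

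All 15 PSII genes had log2 fold changes above 0, with a median of 0.09 and a range from 0.03 to 0.46, and none passed. psbA, which encodes the fast-turning reaction centre protein of PSII, read 1190 and 1406 in Col and 1271 and 1839 in ref6-1. Only ref6-1 replicate 2 stood above the rest, for a mean difference of 0.24 in log2 (SE 0.160, adjusted p = 0.833). Its partner in the reaction centre is encoded by psbD, which had 1161 and 2006 in Col and 1641 and 2038 in ref6-1 (log2 fold change 0.26). Col replicate 1 was the low array, and Col replicate 2 nearly equalled the highest ref6-1 array.

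The core antenna genes psbB and psbC also had unlike point values, with no test between them. psbB read 252 and 440 in Col and 350 and 614 in ref6-1, with overlap, and at 0.46 (SE 0.264, adjusted p = 0.764) its fold change in log2 was the highest of the 15 PSII genes. psbC read 4580 and 5279 in Col and 5246 and 5203 in ref6-1, differing by 0.09. psbE and psbF, which encode the cytochrome subunits of PSII, had log2 fold changes of 0.03 and 0.04. Among the genes of small membrane subunits, psbT was at 0.42 (143 and 278 in Col, 226 and 329 in ref6-1). psbI was the lowest of the complex at 0.03 (1454 and 1502 in Col, 1433 and 1591 in ref6-1). The others lay close together, with psbK and psbL at 0.13, psbJ and psbH at 0.09, psbM at 0.08 and psbZ at 0.04. psbN, whose product acts in PSII assembly in tobacco and which is read from the opposite strand within the psbB unit, was at 0.12. In psbJ, psbM and psbZ the genotypes did not overlap, though their log2 fold changes were under 0.10.

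Cytochrome b6f had the lowest median of the complexes with several genes, 0.02, with a range from -0.04 to 0.08. petA, the gene of cytochrome f, read 5736 and 6182 in Col and 5858 and 6271 in ref6-1, with overlapping genotypes (log2 fold change 0.03). petB, the gene of cytochrome b6, was at 0.06. petD, which encodes subunit IV, had the lowest value at -0.04 (53.2 and 48.6 in Col, 47.6 and 51.0 in ref6-1). Of the genes for small subunits, petN was at 0.02 and petL, the highest, at 0.08. The intensities of petL were 193 and 412 in Col and 343 and 264 in ref6-1, with both ref6-1 arrays inside the Col range. petG had the widest replicate spread of the 45 genes: 82.4 and 253.8 in Col and 96.6 and 226.6 in ref6-1. Its genotype means were 168 ± 121 and 162 ± 91.9 (SD, n = 2). The 95% interval of its log2 fold change of 0.02 ran from -0.93 to 0.97, so that changes of nearly 2-fold either way lay inside it.

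The ATP synthase genes had a median of 0.09. atpF, which encodes a subunit of the peripheral stalk, was at 0.42 (SE 0.166, adjusted p = 0.481), with 101 and 152 in Col and 154 and 189 in ref6-1. The genotypes did not overlap, by a margin of 154 against 152. The lowest was atpB, the gene of the catalytic beta subunit and the brightest of the 45, at 0.04 (9844 and 11357 in Col, 10872 and 10858 in ref6-1). Only Col replicate 1 stood apart there, below 3 arrays that differed little. atpE, for the epsilon subunit and read from the same transcripts as atpB, was at 0.10. atpA for the alpha subunit was also at 0.10, atpH for the ring subunit at 0.09 and atpI for the membrane subunit beside the ring at 0.05. rbcL read 598 and 752 in Col and 652 and 735 in ref6-1, an overlap with a mean difference of 0.04 in log2 (SE 0.124, adjusted p = 0.974, 95% interval -0.23 to 0.32).

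Among the 10 NDH genes the median was 0.13 and 9 values were above 0. ndhH, which encodes a subunit of the arm outside the membrane, had the highest value: 28.8 and 66.0 in Col and 56.8 and 74.0 in ref6-1, differing by 0.42 in log2 (SE 0.232, adjusted p = 0.747). Again Col replicate 1 lay far below the other 3 arrays, which overlapped. The other subunit genes of that arm, ndhI, ndhJ and ndhK, were at 0.10, 0.04 and 0.25. Of the membrane subunit genes, ndhD was at 0.26 (212 and 246 in Col, 232 and 330 in ref6-1), ndhE at 0.21, ndhA at 0.13, ndhG at 0.12 and ndhC at 0.03. The values nearest the median of the 10 were those of ndhA and ndhG. ndhF was the only gene with both ref6-1 arrays below both Col arrays. Its intensities, 4.40 and 4.53 in Col and 2.35 and 3.80 in ref6-1, lay near the lowest value in the file, 1, and were the dimmest of the 45, so its log2 fold change of -0.10 (SE 0.111) says little about the transcript.

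In all, both ref6-1 arrays lay above both Col arrays in 7 of 45 genes (15.6%), against 16.1% of all probe sets, and below them in 1 of 45 (2.22%), against 19.5%. With 2 arrays against 2, an exact two-sided permutation test of a single value cannot go below p = 0.333.

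In most of the 45 genes the 2 arrays of a genotype differed more than the genotype means did. A difference of single arrays varies more than one of means, so the shares over all probe sets are given beside. In Col, replicate 2 was above replicate 1 in 43 of 45 genes, against 39.8% of all probe sets, by a median of 0.26 in log2. In ref6-1 it was above in 36 of 45, against 52.6% of all probe sets, by a median of 0.21. Over all probe sets these medians were -0.04 and 0.01. The difference between the Col arrays was larger than that between genotypes in 37 of 45 genes (82.2%, against 61.2% of all probe sets), and in ref6-1 this was so in 33 of 45 (73.3%, against 57%). By complex, the median difference between Col arrays was 0.29 for PSI, 0.28 for PSII, 0.14 for cytochrome b6f, 0.26 for the ATP synthase and 0.22 for NDH. In ref6-1 these medians were 0.30, 0.22, 0.16, 0.11 and 0.15.

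**Figure D2:**
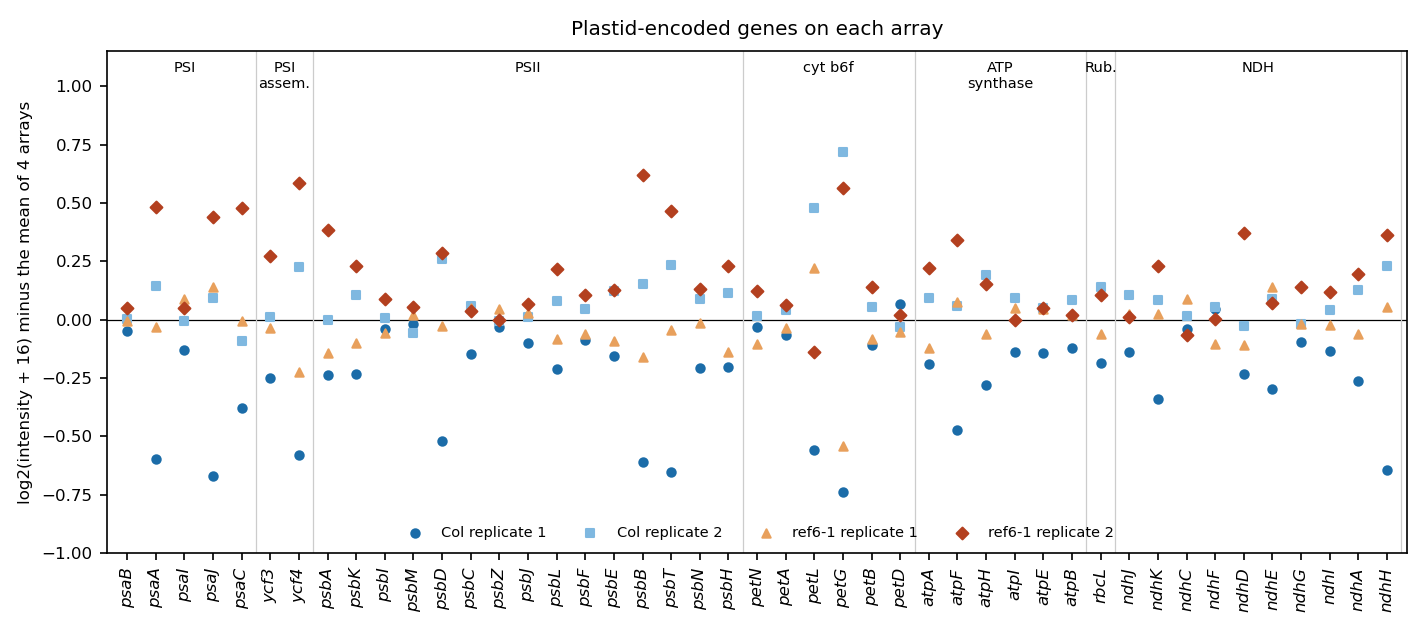
Deviation of each array from the mean of the 4 arrays (y axis, log2(intensity + 16)) for each of the 45 genes (x axis, grouped by complex); each symbol is 1 array. Col replicate 1 is the lowest of the 4 in 39 genes and ref6-1 replicate 2 the highest in 30.

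The arrays stood in a recurring order. Col replicate 1 was the lowest of the 4 arrays in 39 of 45 genes, against 22.3% of all probe sets, and ref6-1 replicate 2 the highest in 30 of 45, against 25.8%. Between them lay Col replicate 2 and ref6-1 replicate 1, and here the order of the genotypes turned. Setting single arrays side by side, ref6-1 replicate 1 was above Col replicate 1 in 41 of 45 genes, with a median difference of 0.14, but above Col replicate 2 in 9 of 45, with a median of -0.08. ref6-1 replicate 2 was above Col replicate 1 in 42 of 45 (median 0.34) and above Col replicate 2 in 33 of 45 (median 0.07). Over all probe sets the shares above, in the same order, were 40.2%, 51.0%, 42.9% and 52.7%. Their median differences were -0.042, 0.004, -0.037 and 0.009. Each array enters 2 of these 4 comparisons, so they are not independent. PSI was the complex whose median was above 0 in each of the 4, at 0.37, 0.05, 0.86 and 0.34 in the order just given. On ref6-1 replicate 1, 3 of 5 PSI genes and 0 of 6 cytochrome b6f genes were above Col replicate 2, against 51.0% of all probe sets.

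The values depended on which array was left out. Those of all probe sets moved less. Dropping Col replicate 1 put 52.5% of their log2 fold changes above 0 (median 0.007), and dropping Col replicate 2, 40.5% (median -0.042). For ref6-1, dropping replicate 1 gave 46.5% (median -0.013) and dropping replicate 2 gave 44.5% (median -0.019). Only when Col replicate 1 was dropped was the share above 0 smaller in the 45 genes than in all probe sets. Without Col replicate 1 the median log2 fold change of the 45 genes was -0.01, with 19 above 0, and none passed (1.29% of all probe sets did). Without ref6-1 replicate 2 it was 0.04, with 28 above 0 and none past the test (1.2% of all probe sets). Without Col replicate 2 the median was 0.24 and 9 of 45 passed, all higher in ref6-1, against 2.34% of all probe sets. These were psaA, psaC, psaJ, psbB, psbD, psbT, petL, atpF and ndhH, with log2 fold changes from 0.60 for petL to 0.96 for psaJ (limma adjusted p = 0.000822 for psaJ). Without ref6-1 replicate 1 the median was 0.18 and 4 passed, namely psaC, psaJ, psbB and ycf4, against 1.75% of all probe sets. In these fits a lone array is assumed to vary like the other genotype's. psaC, psaJ and psbB were called in both, and without Col replicate 1 their log2 fold changes were 0.33, 0.20 and 0.07.

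Some genes whose sign held whichever array was left out still moved widely. Others moved little, such as psbM, from 0.06 to 0.09, and psaB, from 0.02 to 0.07. psaA ranged from 0.08 without Col replicate 1 to 0.82 without Col replicate 2, and over the same arrays psaJ ranged from 0.20 to 0.96, atpF from 0.15 to 0.68 and ndhK from 0.04 to 0.47. Without ref6-1 replicate 2 psaC was at 0.23, psbB at 0.07, ycf3 at 0.08 and ndhD at 0.02. Without ref6-1 replicate 1 these were at 0.71, 0.85, 0.39 and 0.50. In psaA, psaJ, atpF and ndhK the low end thus came without the Col array that was mostly lowest. In psaC, psbB, ycf3 and ndhD it came without the ref6-1 array that was mostly highest.

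The medians by complex moved likewise. Without Col replicate 1 they were 0.08 for PSI, -0.01 for PSII, -0.03 for cytochrome b6f, -0.05 for the ATP synthase and 0.00 for NDH.

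**Figure D3:**
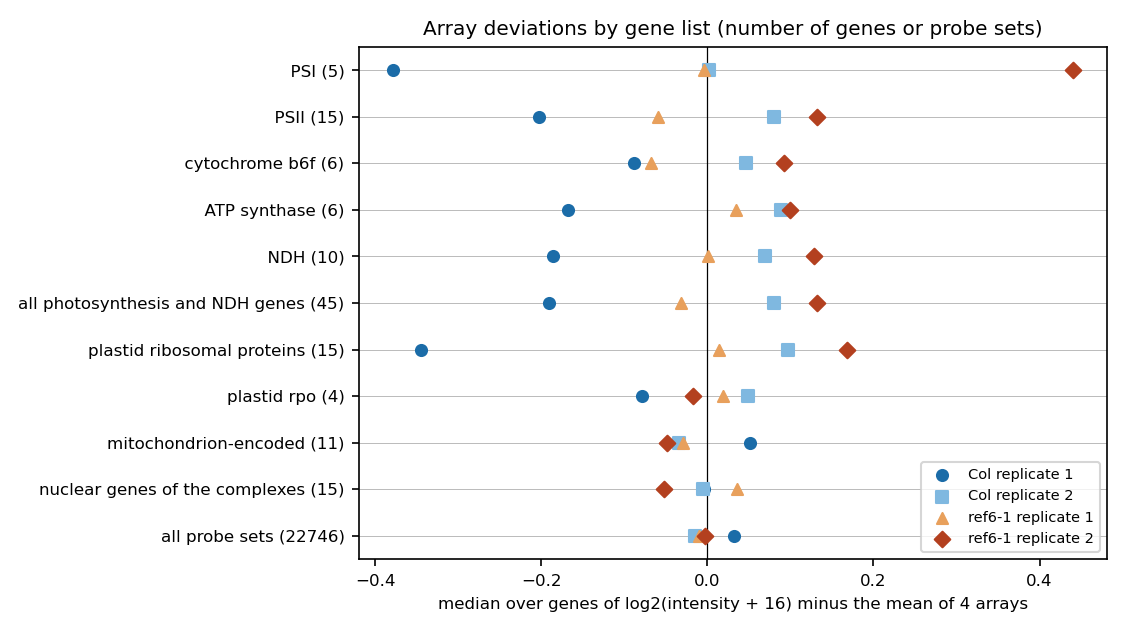
Median over the genes of a list of each array's deviation from the 4-array mean (x axis, log2(intensity + 16)), for the 5 complexes, the 45 genes together and other lists (y axis, with the number of genes or probe sets). Plastid lists other than rpo spread from Col replicate 1 at the low end to ref6-1 replicate 2 at the high end, and the 3 lowest lists drawn, the pooled nuclear genes, the mitochondrial genes and all probe sets, stay within 0.06 of 0.

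Other plastid genes were set beside the 45, with no test of the difference. The 15 plastid ribosomal protein genes, which encode part of the organelle's translation machinery, were at a median of 0.19 in log2, with 13 above 0 and none called, and their median deviation from the 4-array mean was -0.34 on Col replicate 1 and 0.17 on ref6-1 replicate 2. For the 45 photosynthesis and NDH genes these deviations were -0.19 and 0.13. The 4 measured rpo genes, which encode the core of the plastid polymerase, had a median of 0.03, with rpoC1 at 0.30, rpoC2 at 0.12, rpoA at -0.06 and rpoB at -0.32 (adjusted p = 0.389), and none was called. Of the 5 remaining plastid genes 3 were above 0 (cemA at 0.21, matK at 0.11 and accD at 0.10), clpP was at -0.05 and none was called. ccsA, needed for attaching heme to cytochromes, lay on the other side: 3318 and 3198 in Col and 2939 and 2507 in ref6-1, both below Col, at -0.26 (unadjusted p = 0.0346, adjusted p = 0.500).

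The array order of the 45 genes was set beside lists of genes outside the plastid genome. The annotation used named 15 listed nuclear genes of the same complexes, comprising subunits, antenna proteins, Rubisco activase (RCA) and factors for assembly or repair (PSB27, CRR41 and CRR42). PSI was represented by PSAN alone, Rubisco by RCA alone and cytochrome b6f by no gene. LHCB4.1 and RCA are among the 15 and are also the 2 leaf markers. Of the 15 genes 0 were called in either direction and 7 were above 0, with a median of 0.00. Their median deviation was 0.00 on Col replicate 1 and -0.05 on ref6-1 replicate 2. Taken by complex, the 5 NDH genes were at -0.02 and 0.05 in Col and 0.08 and -0.10 in ref6-1. The median of the 2 leaf markers did follow the order of the 45 genes at a smaller size, with -0.05 and 0.01 in Col and -0.01 and 0.04 in ref6-1, although neither marker did so alone. The median of the 3 root markers did not follow that order, with -0.02 and -0.09 in Col and 0.11 and 0.09 in ref6-1. PSAN, a nuclear PSI subunit gene, was at -0.07. PSBW and PSBY of PSII were at 0.00 and 0.03, and ATPC1, the gamma subunit gene of the ATP synthase, was at -0.05. NdhL, NdhN and NdhS of NDH were at 0.04, -0.06 and -0.09, and CRR42, an NDH assembly factor gene, was at -0.33 (adjusted p = 0.486). Of 12 nuclear genes for plastid RNA editing, processing and assembly factors none was called and 6 were above 0, with a median of 0.00. The 11 mitochondrion-encoded genes had a median of -0.04, with 3 above 0 and 0 called.

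Ratios of 3′ to 5′ control probe sets, which drop when more full-length message is labelled, moved in part with the arrays. Of 6 such pairs 4 had their highest ratio on Col replicate 1 and 4 their lowest on ref6-1 replicate 2. For actin the r2 pair gave 2.32 and 1.84 in Col and 2.14 and 1.72 in ref6-1. For GAPDH the Athal pair gave 2.81 and 2.19 in Col and 2.39 and 2.13 in ref6-1. The r2 pair for ubiquitin gave 0.842 and 0.823 in Col and 0.827 and 0.809 in ref6-1. In these 3 pairs the arrays stood in the reverse of their order for the 45 genes, whose median deviations were -0.19 and 0.08 in Col and -0.03 and 0.13 in ref6-1. The other 3 pairs did not follow it: the r2 pair for GAPDH gave 0.844 and 0.823 in Col and 0.737 and 0.873 in ref6-1. The Athal pairs for actin and ubiquitin ranged from 4.65 to 5.11 and from 1.98 to 2.14. The part of these ratios in the array differences was not tested.

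Point values differed among genes of several cotranscribed units, and no difference between genes was tested. The 95% intervals were wide: -0.13 to 1.05 for psbB, -0.14 to 0.98 for psbT, 0.05 to 0.79 for atpF and -0.06 to 0.57 for ndhK. In the psbB unit psbB and psbT were at 0.46 and 0.42, psbH and petB at 0.09 and 0.06, and petD at -0.04. psbN, on the opposite strand there and not part of that transcript, was at 0.12. In the atpI unit atpI, atpH and atpA lay between 0.05 and 0.10 and atpF at 0.42. The unit of ndhH, ndhA, ndhI, ndhG, ndhE, psaC and ndhD ran from 0.10 for ndhI to 0.47 for psaC, which is a PSI gene among NDH genes. In the ndhC unit ndhK was at 0.25, with ndhC and ndhJ at 0.03 and 0.04. Smaller ranges were found for psbE, psbF, psbL and psbJ, from 0.03 to 0.13, and for atpB and atpE, at 0.04 and 0.10. petL and petG, also transcribed together, were at 0.08 and 0.02. They had the widest Col replicate differences of the 45 genes, 1.04 and 1.45. In ref6-1 theirs were -0.36 and 1.11, in opposite directions.

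**Figure D4:**
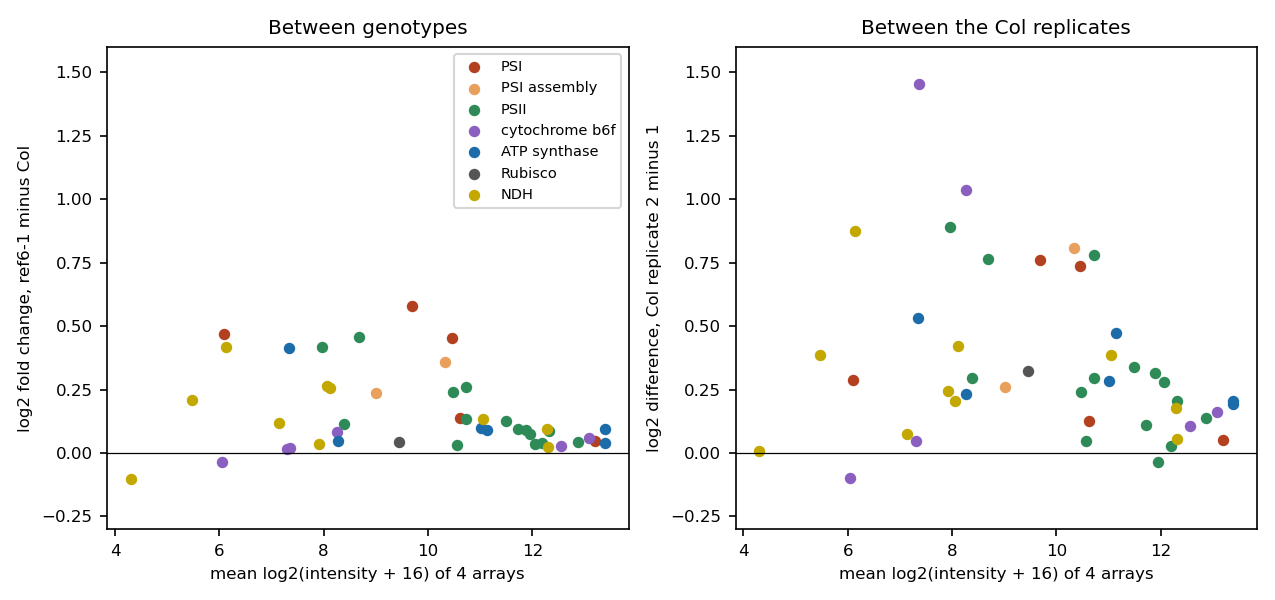
Each point is 1 of the 45 genes, coloured by complex, plotted by its mean log2(intensity + 16) over 4 arrays (x axis) against the genotype difference (left, log2) and the difference between the Col replicates (right, log2). The 11 genes above 12 on the x axis stay within 0.10 between genotypes and within 0.29 between replicates.

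The brightest probe sets differed least, brightness being a property of the probe set and not a measure of one transcript against another. The 11 genes with a mean level above 12 in log2 were psaB, psbC, psbE, psbF, psbZ, petA, petB, atpB, atpE, ndhC and ndhI, with log2 fold changes from 0.03 to 0.10 and Col replicate differences from 0.03 to 0.28. In the 17 genes between 9 and 12 the median fold change was 0.13 (0.03 to 0.58) and the median Col difference 0.32. In the 17 at or below 9 these were 0.12 (-0.10 to 0.47) and 0.30. Over all probe sets in these ranges the median size of the fold change, regardless of sign, was 0.05, 0.09 and 0.08, so the brightest varied least there too. The median size of the Col replicate difference was 0.09, 0.11 and 0.12 over all probe sets, against 0.16, 0.32 and 0.30 in the 45 genes. Across the 45 genes, which are not independent and share the same arrays, the mean level and the log2 fold change had a Pearson correlation of -0.26 and a Spearman correlation of -0.25. These bounds were chosen after the values were seen, and saturation of bright probe sets was not tested.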

How the data were processed

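RNA was extracted with Trizol, and 10 ug per sample went into biotinylated cRNA, per the labels. The authors deposited 1 linear intensity per probe set and array. For the steps from scan to intensity (summary, background, scaling) no source used here gives a method. Scaling between arrays would remove a shift common to most transcripts. Of 22810 probe sets, 64 controls were left out. Intensities were taken as log2(intensity + 16), which understates changes of dim genes, without further normalization. ref6-1 and Col were compared in limma 3.58.1 (R 4.3.3; lmFit, eBayes with intensity trend). Two-sided p-values were adjusted by Benjamini-Hochberg across the 22746 remaining probe sets, and a call needs an adjusted p under 0.05. The median total degrees of freedom were 9.80. Names came from the platform annotation and the RefSeq table of TAIR10.1 (13436 probe sets matched 1 locus). Mitochondrial genes were matched by symbol, a rule chosen after the tables were seen. No sequences or coordinates are printed. On simulated arrays with known changes the fit recovered 56.2% of 1.5-fold and 98.6% of 2-fold changes. Each probe set was drawn independently there. Shifts shared by many genes of an array were thus not covered.

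The 45 genes and the lists were chosen with earlier results of these data known. Every gene is accounted for. The naming rule gives values for the genes with the highest and lowest log2 fold change in each complex, any gene called in the fit or without an array, the brightest and the dimmest, the 3 smallest unadjusted p, rbcL, ycf3, ycf4, psbA, the ndh genes nearest their median, and textbook cotranscribed units (psbN, listed with the psbB unit, is set apart). Of 109 names listed for nuclear genes of the complexes, 15 genes were found; none of the names listed for cytochrome b6f or for plastid transcription was found. Alternatives tried were a pseudocount of 1 or 64, quantile or median scaling, dropping the dimmest 30% or 50% of probe sets, no trend, a robust prior, every single-gene probe set, replicate number as a block, and leaving out each array. The labels do not say whether replicates came from separate sowings, so p-values measure the spread between these samples.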

Additional observations from a re-analysis of the deposited data

How the results depend on the processing

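The count of 0 of 45 genes held under normalization, pseudocount, filter, trend and prior alternatives (40 and 38 genes tested without the dimmest 30% and 50%); using every single-gene probe set changes nothing, since each gene has 1. Leaving out 1 array in turn gave 0 to 9 genes called and 273 to 533 over all probe sets (533 without Col replicate 2). With replicate number as a block, 11 of the 45 were called, all higher, and 1636 of 22746 probe sets in all. The 11 were psaA, psaC, psaJ, psbA, psbB, psbD, psbT, atpF, ndhH, ycf3 and ycf4. No label ties equal numbers to a common batch. From 2 pairs alone the correlation of replicate differences across genes (0.564 over the 45, 0.279 over all probe sets) does not establish a pairing. The block counts are therefore given only beside those of the fit without a block. The PSI median ran from 0.0833 to 0.710 and that of the ATP synthase from -0.0542 to 0.216, both lowest without Col replicate 1. The dim genes psaC and ndhH were at 0.60 and 0.56 with a pseudocount of 1, and at 0.28 and 0.23 with 64. petD was at 0.0031 after quantile normalization. Of the 45 genes 26 changed sign without Col replicate 1, 15 without ref6-1 replicate 2, 3 without ref6-1 replicate 1 and 0 without Col replicate 2. Ranges of those that did are -0.025 to 0.50 for psbA, -0.041 to 0.30 for psbK, -0.044 to 0.11 for psbI, -0.074 to 0.27 for atpA, -0.15 to 0.33 for atpH, -0.070 to 0.16 for atpI, -0.095 to 0.13 for petN, -0.13 to 0.65 for psbD, -0.015 to 0.19 for psbC, -0.086 to 0.16 for ndhJ, -0.053 to 0.10 for ndhC, -0.0016 to 0.19 for atpE, -0.064 to 0.14 for atpB, -0.12 to 0.21 for rbcL, -0.047 to 0.76 for ycf4, -0.028 to 0.079 for petA, -0.017 to 0.28 for psbL, -0.041 to 0.12 for psbF, -0.11 to 0.17 for psbE, -0.43 to 0.60 for petL, -0.71 to 0.75 for petG, -0.026 to 0.86 for psbT, -0.032 to 0.26 for psbN, -0.093 to 0.27 for psbH, -0.053 to 0.17 for petB, -0.085 to 0.013 for petD, -0.059 to 0.33 for ndhA and -0.019 to 0.85 for ndhH. The cause was not tested. With 4 arrays, changes of small size may be missed, and the unstated background correction limits the dimmest genes.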
